A study of Saccharomyces cerevisiae with 8 samples.

Results

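The genes described here carry acetate into metabolism and from there into sugar. They are ADY2 (YCR010C), ACS1 (YAL054C), ACH1 (YBL015W), CIT2 (YCR005C), ICL1 (YER065C), MLS1 (YNL117W), MDH2 (YOL126C), MAE1 (YKL029C), PCK1 (YKR097W) and FBP1 (YLR377C), taken by locus name from the deposited table, and they held 172 of its 76330 distinct ACA sites. The series profiled polyadenylated RNA of diploid SK1 budding yeast after induction of meiosis, cut with MazF, a bacterial endoribonuclease that cleaves at ACA and spares an ACA whose first A carries N6-methyladenosine (m6A). Per the labels, both genotypes were MAT a/alpha and homozygous for ndt80::LEU2, ho::LYS2 and lys2, so that all cells lacked an intact NDT80, the transcription factor gene needed to leave pachytene. The genotype called WT carried IME4, the mRNA m6A methyltransferase gene, and the genotype called KO was also ime4::HIS3/ime4::HIS3. RNA before pulldown (input) and after pulldown with an anti-m6A antibody (IP) gave 4 groups of 2 biological replicates, 8 libraries in all. Cells were grown in YPD before induction, and the labels state no time in meiosis.

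Yeast sporulates on acetate, which enters the cell through carboxylate carriers and is activated to acetyl-CoA. The glyoxylate cycle builds malate from acetyl-CoA without the loss of carbon that the TCA cycle entails, and gluconeogenesis turns that malate into sugar phosphates for storage carbohydrate and the spore wall. Glucose represses many of these genes and triggers degradation of several of their enzymes, and meiotic entry needs glucose to be absent.

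Each value is the normalized cleavage efficiency of an ACA site, a fraction from near 0 to 1, and a higher value was taken to mean more cutting, a direction that neither the labels nor the table state. An offset such as +154 is the distance in nt from the first position of the gene model, in the direction of transcription. Coordinates are those of the deposited table, whose build was not given, and neither exon nor UTR annotation was at hand. The reads behind each fraction are unknown, so no counting interval is given. Of the 172 sites, 130 (75.6%) had a value in all 8 libraries and were tested, against 22.8% of all listed sites (17376). A tested site is thus one that was read in every library. MAE1 had 1 tested site of 20, FBP1 had 2 of 13 and CIT2 had 10 of 13, and each of the other 7 genes lacked at most 2 of its listed sites. Over the 130 sites, Pearson's r between replicates was 0.988 and 0.972 in WT before and after pulldown and 0.997 and 0.986 in KO, where all tested sites gave 0.929, 0.944, 0.984 and 0.955 in that order. These sites share libraries and transcripts and are not independent points. As a check of the genotype, the 27 sites listed for IME4 had 21 and 23 values in WT input but 2 and 0 in KO input. Between 3.23% and 9.80% of the values of a library stood exactly at its maximum, and values at that ceiling carry no replicate spread.

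**Figure D1:**
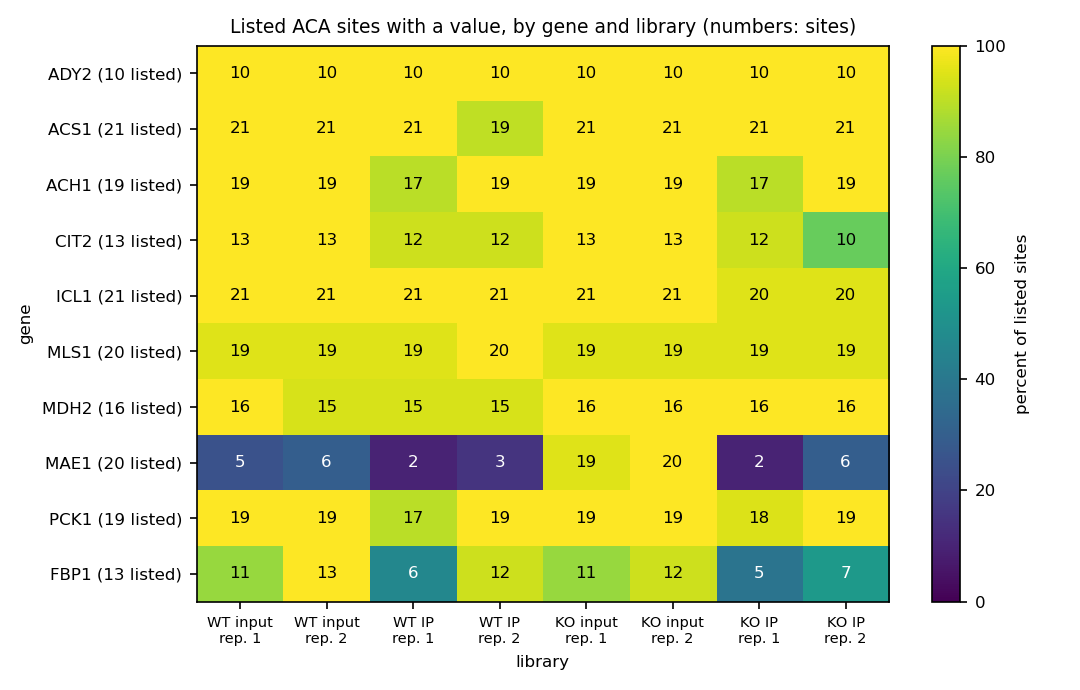
Number of listed ACA sites with a value, by gene (rows, with the sites listed) and library (columns), coloured by percent of the listed sites. MAE1 had values at 19 and 20 of its 20 sites in KO input but at 5 and 6 in WT input, and FBP1 had 5 to 12 of its 13 sites in the IP libraries.

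WT was set against KO in IP to ask where cutting differed when IME4 was present, in RNA after the anti-m6A pulldown. KO lacked the methyltransferase gene, so its RNA after pulldown cannot be taken as enriched for m6A. Of the 130 tested sites, 23 were lower in WT, 39 were higher and 68 did not pass limma's test (adjusted p under 0.05, two-sided, adjusted over all 17376 sites). The background over all tested sites was 17.0% lower and 24.3% higher (41.3% in either direction), and the 10 genes had 17.7% and 30.0%. With only the 4 IP libraries fitted, 16 sites were lower and 24 were higher (12.3% and 18.5%, against 14.0% and 18.7% of all tested sites). The median change was 0.0311, against 0.0089 over all tested sites. Falls of 0.5 or more that passed were found at 6 sites (4.62%), with a background of 4.74%, and rises of 0.5 or more at 3 sites (2.31%), with a background of 2.70%. These shares lie near the background, so the description below is of individual sites. With 2 libraries a group, no exact test of a single site can give a two-sided p under 0.333. The libraries of WT IP and KO IP did not overlap at 104 of the 130 sites, where the background was 72.5%.

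**Figure D2:**
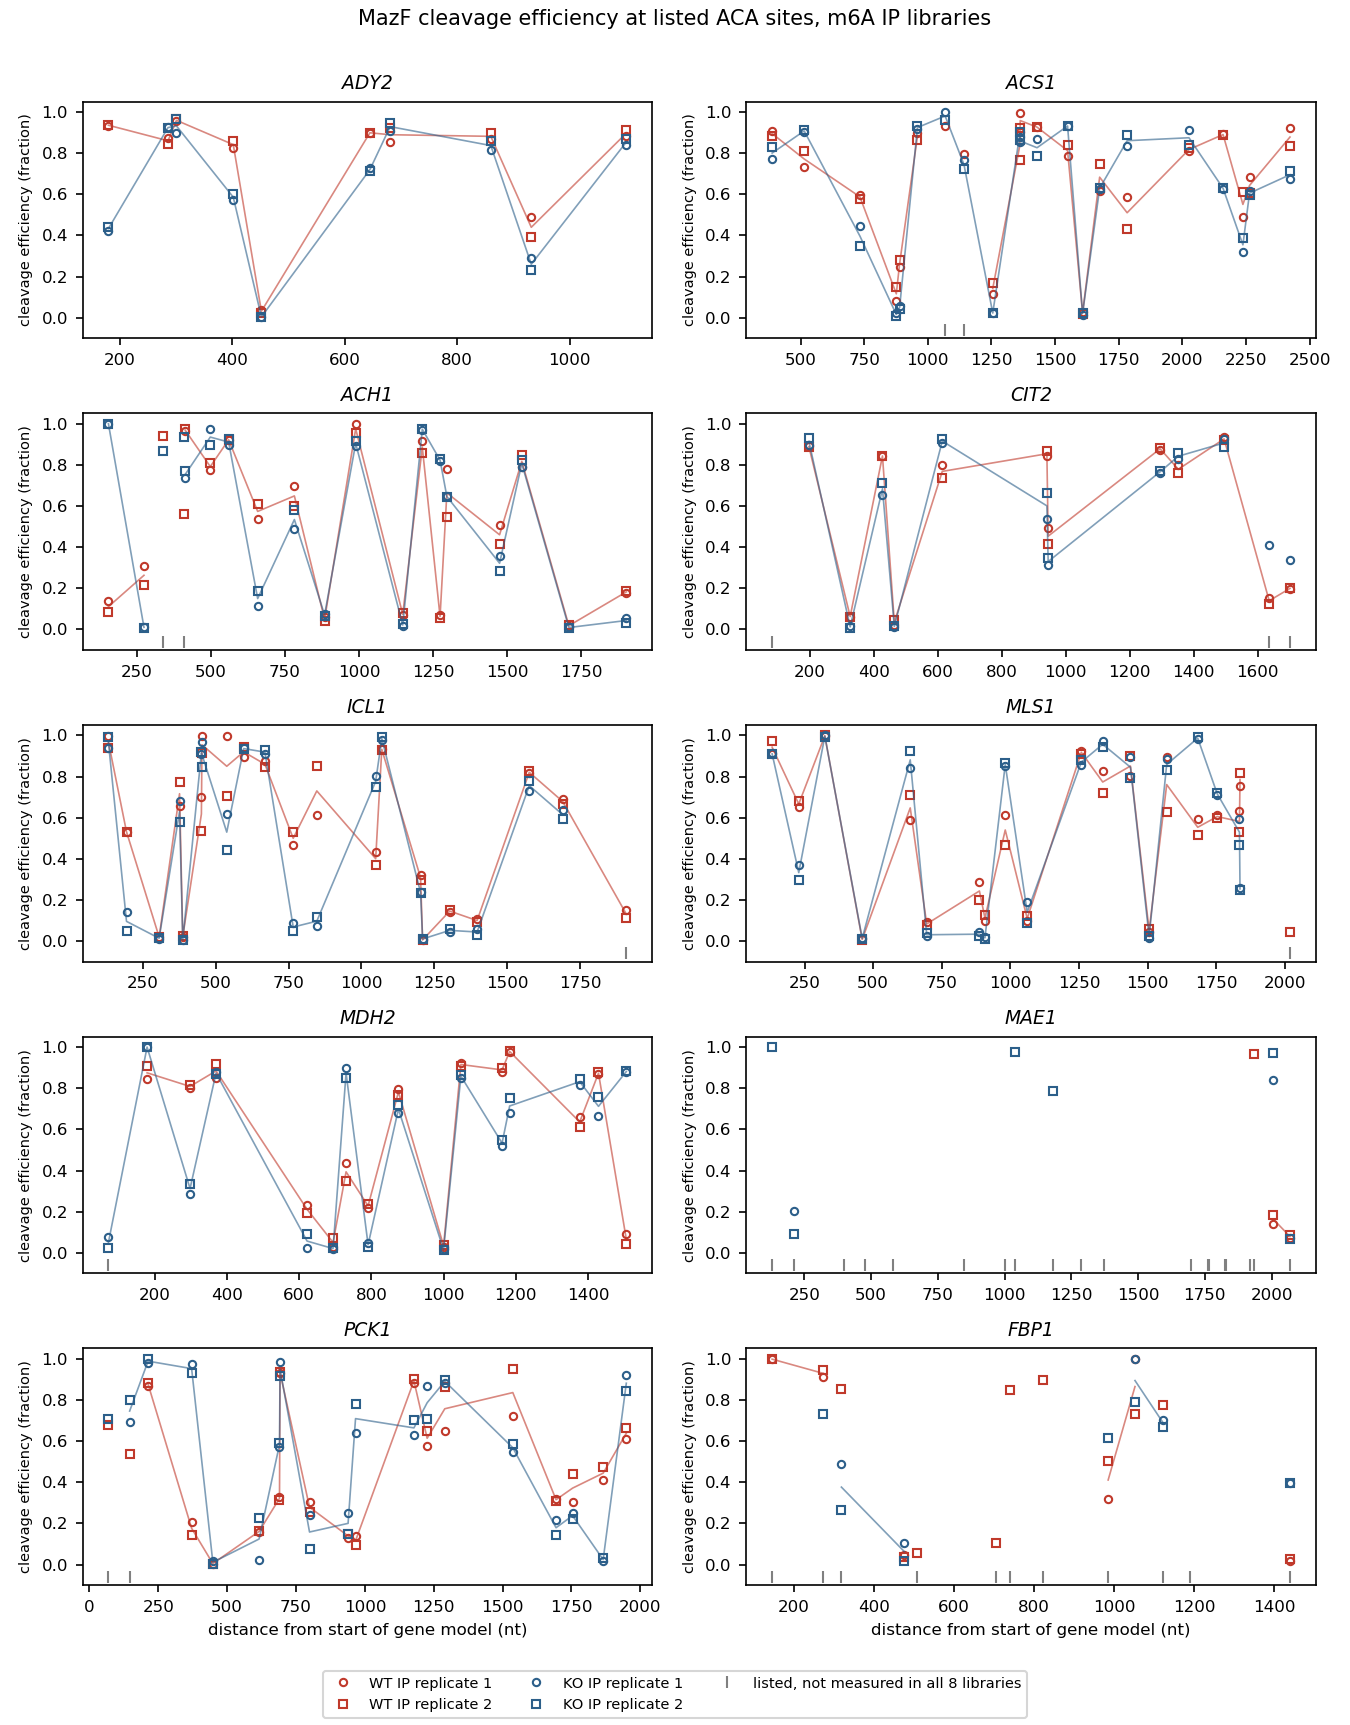
Cleavage efficiency (fraction) in the IP libraries against distance from the start of the gene model (nt), a panel per gene. Circles and squares are replicates 1 and 2, lines join means of 2 replicates, and grey ticks mark listed sites without a value in all 8 libraries. ACH1 +154 stands at 0.136 and 0.0857 in WT IP and at 1.00 in both KO IP libraries, and most other sites of ACH1 lie closer together.

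The genes that bring acetate in and activate it, ADY2, ACS1 and ACH1, had 46 tested sites, of which 6 were lower in WT IP, 17 were higher and 23 did not pass. The deepest falls were in ACH1, which encodes the mitochondrial acetyl-CoA hydrolase, an enzyme that can also move CoA from succinyl-CoA to acetate. At ACH1 +154 (chromosome 2, position 190114, plus strand) efficiency was 0.644 and 0.622 in WT input, 0.136 and 0.0857 in WT IP, 0.991 and 0.994 in KO input, and 1.00 in both KO IP libraries. Both WT IP libraries were far below every other library, and both WT input libraries lay between them and KO. The change in IP was -0.889 (SE 0.0262, adjusted p = 4.94e-05). Since KO IP was at its ceiling, its SD of 0 does not give replicate spread. At ACH1 +1274 (position 191234) efficiency was 0.441 and 0.406 in WT input, 0.0689 and 0.0565 in WT IP, 0.794 and 0.798 in KO input, and 0.817 and 0.829 in KO IP. The groups were ordered as at +154, with no overlap between any pair of groups, and the change in IP was -0.760 (SE 0.0237, limma's adjusted p = 5.09e-05). Between these sites, ACH1 rose by 0.423 at +658, where WT IP had 0.537 and 0.610 and KO IP 0.116 and 0.185. ACH1 +274 rose by 0.253, from 0.0117 and 0.00912 in KO IP to 0.310 and 0.217 in WT IP. A single transcript thus held sites with large differences in both directions. Its last listed site, +1903, rose by 0.139 (adjusted p = 0.00513), or by 0.0921 after quantile normalization.

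ADY2 encodes a plasma membrane acetate transporter whose mutants were first known for forming dyads in place of tetrads. All 10 of its listed sites were measured in all 8 libraries, and in IP 4 were higher in WT, 0 were lower and 6 did not pass. At ADY2 +180 (chromosome 3, position 137519, minus strand) efficiency was 0.876 and 0.875 in WT input, 0.934 and 0.938 in WT IP, 0.346 and 0.353 in KO input, and 0.424 and 0.443 in KO IP. All 4 WT libraries lay above all 4 KO libraries, by 0.502 in IP (SE 0.0216, adjusted p = 8.30e-05 by limma) and by 0.526 in input. ADY2 +402 rose by 0.255 in IP, with WT IP at 0.824 and 0.860 and KO IP at 0.571 and 0.601. The last listed site, +1101, had 0.883 and 0.912 in WT IP and 0.840 and 0.868 in KO IP and did not pass (limma's adjusted p = 0.266).

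ACS1, which encodes the acetyl-CoA synthetase used without glucose, had 19 tested sites, with 3 lower and 8 higher in WT IP. At ACS1 +1783 (chromosome 1, position 52455, minus strand) efficiency was 0.535 and 0.558 in WT input, 0.587 and 0.434 in WT IP, 0.872 and 0.892 in KO input, and 0.835 and 0.886 in KO IP. All WT libraries were below all KO libraries, and pulldown added little to the gap, which was -0.350 in IP (SE 0.0528) and -0.336 in input. At ACS1 +2160 (position 52078) the order was reversed, with 0.884 and 0.869 in WT input, 0.894 and 0.887 in WT IP, 0.616 in both KO inputs, and 0.627 and 0.632 in KO IP. That rise was 0.261 in IP and 0.260 in input. ACS1 +889 rose by 0.213, from a KO IP mean of 0.0502 to a WT IP mean of 0.263. The call of the fall at +514 (-0.136, limma's adjusted p = 0.0220) ended with only the 4 IP libraries (0.0772) and with their own complete sites fitted alone (0.0781). It also ended without WT IP replicate 1, where the change was -0.0961, or without either KO IP replicate. The call of the rise of 0.183 at the last listed site, +2423, ended with only the 4 IP libraries (limma's adjusted p = 0.0515). It also ended with their own complete sites fitted alone (0.0519) and without KO IP replicate 1, where the rise was 0.165.

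The glyoxylate cycle genes CIT2, ICL1, MLS1 and MDH2 had 64 tested sites, of which 11 were lower in WT IP, 18 were higher and 35 did not pass. MDH2, the cytosolic malate dehydrogenase gene, had its deepest fall at its last listed site, +1506 (chromosome 15, position 85858, minus strand). Efficiency there was 0.310 and 0.239 in WT input, 0.0905 and 0.0415 in WT IP, 0.875 and 0.890 in KO input, and 0.881 in both KO IP libraries. WT input was already far below KO, by 0.608, and WT IP was lower still, by 0.815 (SE 0.0332, adjusted p = 7.53e-05 by limma). MDH2 +730 fell by 0.480, with 0.438 and 0.349 in WT IP and 0.898 and 0.850 in KO IP. Toward the start of the model, MDH2 rose by 0.496 at position 87066, from 0.288 and 0.337 in KO IP to 0.802 and 0.815 in WT IP, with input close to IP in both genotypes. MDH2 +1162 rose by 0.356. MDH2 thus had 4 lower and 6 higher sites among 15.

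ICL1, which encodes isocitrate lyase, the enzyme that commits isocitrate to the glyoxylate cycle, had 20 tested sites with 2 lower and 4 higher in WT IP. At ICL1 +1049 (chromosome 5, position 292349, minus strand) efficiency was 0.777 and 0.775 in WT input, 0.432 and 0.370 in WT IP, 0.773 and 0.819 in KO input, and 0.803 and 0.750 in KO IP. Only WT IP stood apart at this site, and the other 6 libraries lay between 0.750 and 0.819. The change was -0.376 in IP (SE 0.0345, adjusted p = 0.000687 by limma) and -0.0198 in input, which did not pass. ICL1 +451 fell by 0.297 in IP and by 0.322 in input. The largest rise of the gene was at +847 (position 292551), with 0.605 and 0.700 in WT input, 0.611 and 0.849 in WT IP, 0.190 and 0.241 in KO input, and 0.0753 and 0.119 in KO IP. WT and KO did not overlap in input or in IP there, while WT input and WT IP did, and the WT IP libraries differed from each other by more than those of any other group. The rise in IP was 0.633 (SE 0.0810). ICL1 +194 rose by 0.435, with WT IP at 0.531 and 0.532.

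MLS1 encodes malate synthase, which joins glyoxylate to acetyl-CoA. Of its 19 tested sites, 4 were lower and 4 were higher in WT IP. At MLS1 +1682 (chromosome 14, position 425688, plus strand) efficiency was 0.959 and 0.964 in WT input, 0.592 and 0.515 in WT IP, 0.9905 and 0.998 in KO input, and 0.980 and 0.993 in KO IP. As at ICL1 +1049, WT IP alone was low, and the change was -0.433 in IP (SE 0.0312, limma's adjusted p = 0.000321) and -0.0325 in input, which did not pass. MLS1 +981 fell by 0.318 in IP, from a KO IP mean of 0.859 to 0.540. At MLS1 +1836 (position 425842) efficiency was 0.255 and 0.259 in WT input, 0.755 and 0.815 in WT IP, 0.0283 and 0.0415 in KO input, and 0.260 and 0.248 in KO IP. WT was higher than KO both in IP, by 0.531, and in input, by 0.222. IP was above input in both genotypes, and in KO that call ended under 12 of 16 alternatives, every left-out library among them (limma's adjusted p = 0.0370, range 0.0311 to 0.220). MLS1 +229 rose by 0.334 in IP, with 0.654 and 0.680 in WT IP against 0.369 and 0.298 in KO IP.

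CIT2, the peroxisomal citrate synthase gene, had 10 tested sites and smaller differences, with 1 lower and 4 higher. At CIT2 +427 (chromosome 3, position 126810, minus strand) efficiency was 0.434 and 0.407 in WT input, 0.843 and 0.844 in WT IP, 0.520 and 0.512 in KO input, and 0.655 and 0.712 in KO IP. WT was below KO in input and above it in IP, and both differences passed limma's test (-0.0957, adjusted p = 0.0473, and 0.160, adjusted p = 0.00673). The call in input ended under 11 of 16 alternatives, each left-out WT IP, WT input or KO input library among them (limma's adjusted p from 0.0299 to 0.291). CIT2 +941 rose by 0.253 in IP. The call of the fall at +614 (-0.147, limma's adjusted p = 0.0204) ended with the complete sites of the 4 IP libraries fitted alone (0.0502). It also ended without WT IP replicate 2, where the change was -0.117, or without either KO IP replicate. CIT2, MLS1, MDH2, ADY2 and ACS1 have paralogs in the genome (such as CIT1, DAL7, MDH3, ATO2 and ACS2), and whether reads were shared among them was not tested. No site of the 10 genes measured in 4 or more libraries had the same values in all of them as another position.

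The genes that turn malate into pyruvate, phosphoenolpyruvate and sugar, MAE1, PCK1 and FBP1, had 20 tested sites, 17 of them in PCK1, with 6 lower and 4 higher in WT IP and 10 that did not pass. PCK1 encodes phosphoenolpyruvate carboxykinase, the first committed enzyme of gluconeogenesis. At PCK1 +371 (chromosome 11, position 639660, plus strand) efficiency was 0.601 and 0.605 in WT input, 0.209 and 0.143 in WT IP, 0.965 and 0.960 in KO input, and 0.974 and 0.930 in KO IP. The order was that of ACH1 +154, with WT input between WT IP and KO, and the change in IP was -0.776 (SE 0.0311, adjusted p = 7.40e-05 by limma). PCK1 +966 (position 640255) had 0.884 and 0.873 in WT input, 0.137 and 0.0930 in WT IP, 0.804 and 0.823 in KO input, and 0.639 and 0.779 in KO IP. At this site WT input was the highest group and WT IP the lowest. The change was -0.594 in IP (SE 0.0485, adjusted p = 0.000474 by limma) and 0.0653 in input, which did not pass. At PCK1 +1865 (position 641154) the 4 WT libraries lay between 0.413 and 0.594 and the 4 KO libraries between 0.0146 and 0.167, a rise of 0.420 in IP. PCK1 fell by 0.243 at its last listed site, +1949. The call of the rise at +1537 (0.268, limma's adjusted p = 0.0307) ended on the logit scale (0.0610) and with only the 4 IP libraries (0.0999). It also ended with their own complete sites fitted alone (0.0993), and without either KO input or either KO IP replicate. The rise was 0.156 to 0.381 when a library was left out.

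MAE1 encodes the mitochondrial malic enzyme, which makes pyruvate from malate. At its single tested site, +2006 (chromosome 11, position 388484, minus strand), efficiency was 0.992 and 0.910 in WT input, 0.142 and 0.186 in WT IP, 0.940 and 0.968 in KO input, and 0.839 and 0.973 in KO IP. The WT IP libraries stood far below the other 6, while the WT and KO inputs overlapped. The change was -0.742 in IP (SE 0.0531, adjusted p = 0.000315 by limma) and -0.0030 in input. WT input replicate 1 was at the highest value of its library, so the WT input spread is not known.

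**Figure D3:**
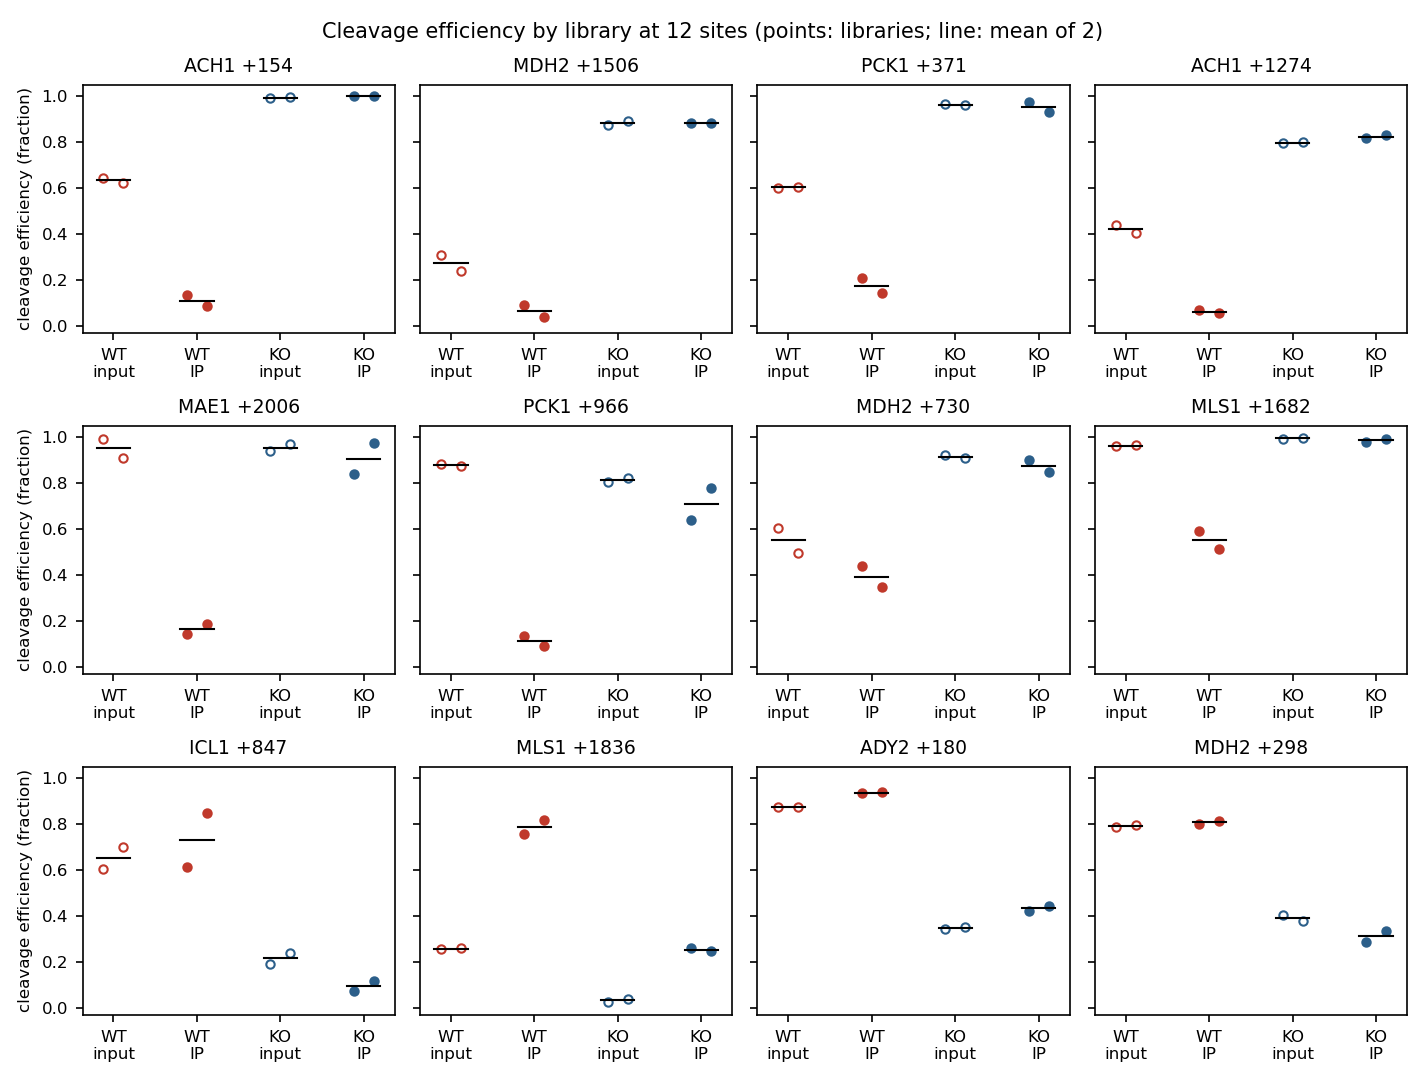
Cleavage efficiency (fraction) in each of the 8 libraries at the 8 sites with the lowest and the 4 with the highest called change in IP; points are libraries (open for input, filled for IP, red for WT, blue for KO) and black lines are means of 2 replicates. In the upper 2 rows WT IP is the lowest group at every site, and WT input lies between WT IP and KO (ACH1, MDH2 and PCK1 +371) or near or above KO (MAE1, PCK1 +966 and MLS1).

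MAE1 also differed from the other 9 genes in how often it was measured. Of its 20 listed sites, 13 (65.0%) had values in both KO inputs and in neither WT input, and these ran from +129 to +1827. In the other 9 genes 0 sites had this pattern, and over all listed sites it was found at 7.14%. Of the 3558 gene models with at least 10 listed sites, 13 (0.365%, MAE1 included) reached the share of MAE1, and the median model had 0. This count was made after the values were seen and has no test. No MAE1 site before +1762 had a value in WT, and neither did +1765 and +1827. Recovery of a site depends on reads across it, and a missing value is no measure of how much of the transcript was present.

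FBP1, the gene of fructose bisphosphatase, which removes a phosphate near the end of gluconeogenesis, had 2 tested sites of 13. In the fit of all 8 libraries neither passed in IP or in input. The larger change in IP was at +1052, where WT IP had 0.997 and 0.733 and KO IP 1.00 and 0.788 (limma's adjusted p = 0.853). The inputs did not overlap there, with 0.518 and 0.572 in WT and 0.847 and 0.810 in KO (-0.283, limma's adjusted p = 0.0908). In a fit of the 4 input libraries alone, FBP1 +1052 passed as lower (limma's adjusted p = 0.0182). Its last listed site, +1439 (chromosome 12, position 872343, minus strand), had 0.0150 and 0.0249 in WT IP and 0.398 and 0.397 in KO IP, with 0.121 in WT input replicate 2 and 0.403 in KO input replicate 2. The groups lay far apart. In a fit of the 4 IP libraries alone (19517 sites, background 32.7%) the change was -0.378 (SE 0.0268, adjusted p = 0.00513). That position is also listed under the neighbouring model YLR376C, at +166, with the same values, so it cannot be assigned to FBP1 alone. Among the other last listed sites, ICL1 +1909 (chromosome 5, position 291489) had 0.189 and 0.172 in WT input, 0.153 and 0.111 in WT IP, and 0.732 and 0.666 in KO input, and KO IP gave no value. WT was low on both sides of the pulldown there. In a fit of the 4 input libraries alone (42028 sites, background 25.0%) the change was -0.518 (SE 0.0331, limma's adjusted p = 0.0111). The last listed sites of CIT2 (+1701, WT IP 0.196 and 0.203), MAE1 (+2069, 0.0715 and 0.0870) and MLS1 (+2018, a value in WT IP replicate 2 only) were not tested in IP.

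WT was also set against KO in input, which asks the question in RNA that was not enriched. Of the 130 sites, 23 were lower in WT, 31 were higher and 76 did not pass, where the background was 15.6% lower and 16.6% higher (32.2% in all) and the 10 genes had 17.7% and 23.8%. Without KO input replicate 1 or replicate 2, which leaves 1 KO input library, fewer sites passed, both in the 10 genes and over all tested sites. The libraries did not overlap at 112 sites, with a background of 75.5%. The deepest fall was at MDH2 +1506 (-0.608). The lowest called sites of the other genes with a lower call were ACH1 +1274 (-0.373), PCK1 +690 (-0.371), MLS1 +1336 (-0.356), ACS1 +1783 (-0.336), ICL1 +451 (-0.322) and CIT2 +1352 (-0.321). MLS1 +1336 had 0.661 and 0.504 in WT input and 0.946 and 0.932 in KO input, and its call ended without KO input replicate 1 (adjusted p = 0.0536, range 0.00611 to 0.0536 by limma). The highest rises per gene were PCK1 +1537 (0.549), ADY2 +180 (0.526), ACH1 +1475 (0.462), ICL1 +847 (0.437), MDH2 at position 87066 (0.401), CIT2 +945 (0.354), ACS1 +2160 (0.260) and MLS1 +1836 (0.222). The call at ICL1 +847 ended without KO input replicate 1 (0.0697) or replicate 2 (0.0543), with adjusted p from 0.00383 to 0.0697 over limma's alternatives.

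Input also reached sites that were not measured in all 4 IP libraries. In the fit of the 4 input libraries alone, 153 sites of the 10 genes were tested, of which 23 were lower and 32 higher (background 11.0% and 14.0%). FBP1 +319 had 0.910 and 0.926 in WT and 0.453 and 0.495 in KO, a rise of 0.444 (SE 0.0265, limma's adjusted p = 0.0111). FBP1 +741 rose by 0.342, with both WT inputs at the highest value of their library. MAE1 +1921 had 0.811 and 0.895 in WT and 0.452 and 0.481 in KO, a rise of 0.387. PCK1 +146 fell by 0.400, with 0.308 and 0.329 in WT and 0.748 and 0.689 in KO; in IP it had 0.538 in WT replicate 2 and 0.694 and 0.798 in KO. These 4 sites were chosen after their values were seen.

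Most calls in IP were shared with input. Among the 23 sites called lower in IP, 15 also passed as lower before pulldown and 8 did not, against 53.3% lower over all tested sites with a lower call in IP. Of the 39 higher calls in IP, 26 were higher in input, 12 did not pass and 1 was lower (CIT2 +427), against 53.0% higher over all. Both contrasts used 1 variance per site from all 8 libraries, so a site with a small spread is called more readily in both. Among the 23 lower calls, 19 had a KO IP mean above 0.8 (82.6%, against 67.3% of all lower calls), so most had a high efficiency in KO. Among the 39 higher calls, 14 had a KO IP mean below 0.1 (35.9%, against 20.2% of all higher calls). A fraction can fall far only from a high value and rise far only from a low one. These shares are thus partly set by the choice of called sites.

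**Figure D4:**
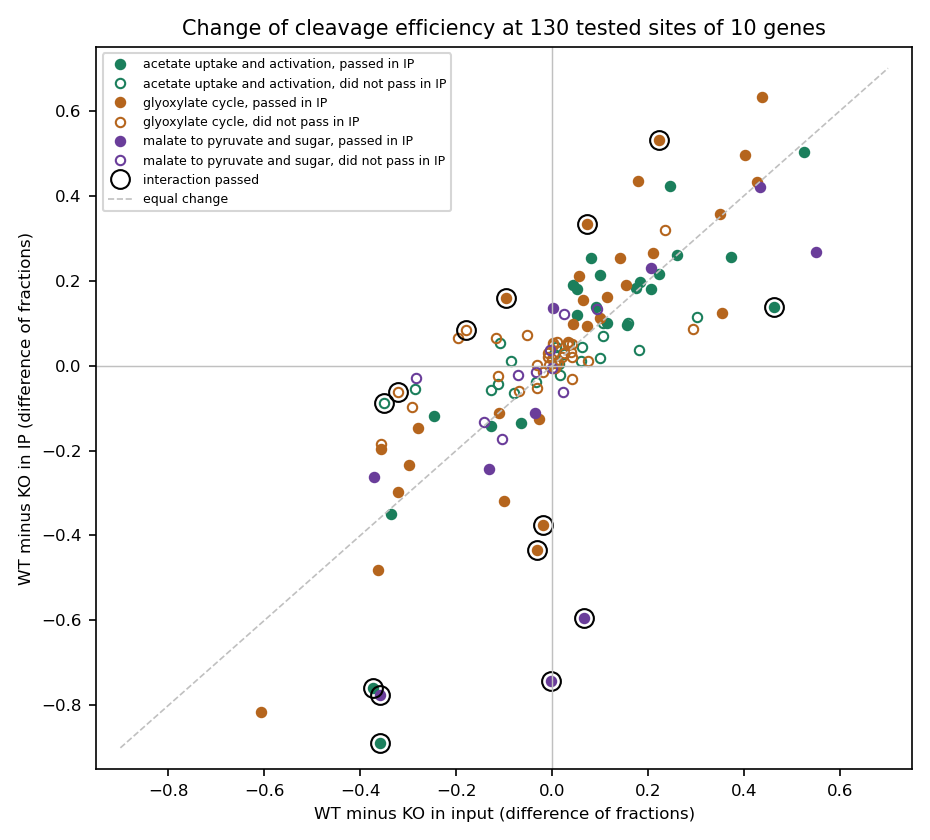
Change of cleavage efficiency (WT minus KO, difference of fractions) in IP against input at the 130 tested sites, coloured by role. Filled points passed in IP, black rings mark sites where the interaction passed, and the dashed line marks equal change. MAE1 +2006 and PCK1 +966 lie near 0 on the input axis and at -0.742 and -0.594 on the IP axis.

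The interaction of genotype and IP asks whether the gap between WT and KO differed before and after pulldown. It passed at 14 of the 130 sites, 8 toward a lower and 6 toward a higher WT value in IP, where the background was 7.75% (4.31% and 3.44%) and the 10 genes had 10.8%. Without KO input replicate 1 or replicate 2, which leaves 1 library in that group, no call of the 14 remained. Most calls over all tested sites were lost then too. The interaction was then -0.7248 or -0.7531 at MAE1 +2006 and -0.6497 or -0.6691 at PCK1 +966. On the logit scale the count was 3, with 171 lower and 89 higher over all tested sites. The lower interactions were at MAE1 +2006 (-0.739, SE 0.0751, adjusted p = 0.00992), PCK1 +966 (-0.659, adjusted p = 0.0102), ACH1 +154 (-0.530, adjusted p = 0.00509), PCK1 +371 (-0.416), MLS1 +1682 (-0.401), ACH1 +1274 (-0.387), ICL1 +1049 (-0.356) and ACH1 +1475 (-0.324). All these adjusted p-values are limma's. Over the alternatives, adjusted p ran from 0.00692 to 0.0939 at MAE1 +2006, from 0.00690 to 0.0676 at PCK1 +966 and from 0.00270 to 0.0534 at ACH1 +154. These calls and those at ACH1 +1274, ICL1 +1049, MLS1 +1682, MLS1 +1836 and PCK1 +371 ended under 2 or 3 alternatives, with the highest adjusted p at MLS1 +1836 (0.745, logit scale). The other 6 ended under more, 10 of 14 at ACH1 +1475 (up to 0.132), CIT2 +1352 (up to 0.182) and MLS1 +229 (up to 0.319), 7 of 14 at CIT2 +427 (up to 0.136) and MDH2 +875 (up to 0.146), and 6 of 14 at ACH1 +1214 (up to 0.753). MDH2 +1506, the deepest site in input, had an interaction of -0.208 and did not pass (limma's adjusted p = 0.0579). ACH1 +1475 was of another kind, with WT higher than KO in input (0.833 and 0.849 against 0.366 and 0.393) and closer to it in IP (0.507 and 0.414 against 0.358 and 0.286). The higher interactions were at MLS1 +1836 (0.309), MDH2 +875 (0.263), ACH1 +1214 (0.263), MLS1 +229 (0.262), CIT2 +1352 (0.258) and CIT2 +427 (0.255). At CIT2 +1352, MDH2 +875 and ACH1 +1214 the WT deficit of the input was smaller or turned in IP. At ACH1 +1214, for example, WT had 0.474 and 0.441 in input and 0.914 and 0.858 in IP, while KO had 0.811 and 0.805 in input and 0.970 and 0.977 in IP.

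IP was set against input within each genotype to show what pulldown did to the values. In WT, 14 of the 130 sites were lower in IP, 24 were higher and 92 did not pass (background 8.43% and 12.4%, 20.9% in all). After quantile normalization the split was 18 and 18, and over all tested sites it was 1740 lower and 1458 higher. The libraries did not overlap at 94 sites in WT (background 63.4%) and at 77 in KO (background 50.8%). The falls were led by MAE1 +2006 (-0.787), PCK1 +966 (-0.764) and ACH1 +154 (-0.522). In KO, where IME4 is deleted, 0 sites were lower and 2 were higher, both in MLS1, at +1836 (0.219, limma's adjusted p = 0.0370) and +1753 (0.196), with a background of 0.576% lower and 1.08% higher (1.66% in all). With any 1 library left out, fewer sites passed in KO, both in these genes and over all tested sites. At MLS1 +1753 the call ended under 15 of 16 of limma's alternatives. ACH1 +154 and +1274, MDH2 +1506, PCK1 +371 and +966, MAE1 +2006, MLS1 +1682 and ICL1 +1049 were picked for a low WT IP. A gap between WT IP and WT input was thus partly set by that choice. MDH2 +730 was left out, although its change in IP (-0.480) was lower than at MLS1 +1682 (-0.433) and ICL1 +1049 (-0.376). That every picked site passed in WT therefore also rests on the choice. Other sites called lower in IP went both ways, with WT IP minus WT input of -0.197 at MLS1 +981, -0.0357 at ACS1 +1783 and 0.160 at CIT2 +614. At the picked sites KO IP differed from KO input by -0.104 (PCK1 +966) to 0.0271 (ACH1 +1274), and none of these differences passed. WT IP differed from WT input there by -0.787 to -0.209, and all passed, although the call at MDH2 +1506 ended with only the 4 WT libraries (limma's adjusted p = 0.0701, range 0.00594 to 0.0714). MDH2 +730, which fell by 0.480 against KO in IP, differed by -0.158 between WT IP and input and did not pass (limma's adjusted p = 0.0740, range 0.0365 to 0.242).

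Position along the gene model was described by dividing the span from the model start to the last listed site into 5 parts of equal length. Of the 23 lower calls in IP, 4, 6, 4, 3 and 6 lay in the parts from the start to the end, among 17, 30, 27, 31 and 25 tested sites. In the last part 24.0% of the tested sites of the 10 genes were lower, and 21.0% of all tested sites of that part. In the first part the shares were 23.5% and 15.3%. Of the 6 falls of 0.5 or more, 2 lay in the first part (ACH1 +154 and PCK1 +371) and 2 in the last (MDH2 +1506 and MAE1 +2006), where 3.63% and 6.53% of all tested sites had such a fall. These are counts without a test.

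Many sites stayed near 1 end of the scale in all 8 libraries. Efficiency was below 0.1 in all 8 libraries at 16 of the 130 sites (12.3%, against 6.42% of all tested sites) and above 0.8 in all 8 at 21 (16.2%, against 9.39%). PCK1 +448 and MLS1 +460, where no library exceeded 0.0170, are examples of the first kind, chosen after their values were seen. The 10 genes thus had a larger share of sites at either end of the scale than all tested sites, a difference that was not tested. Tested sites were 75.6% of the listed sites of the 10 genes but 22.8% of all listed sites. The sets may thus differ in how well their sites were read. A site above 0.8 throughout could still pass, as MDH2 +179 did with a change of -0.125 in IP (limma's adjusted p = 0.0163).

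The other genes of the pathway were described from 3 lists. Regulators of these genes (9 genes, among them the glucose repression kinase gene SNF1 and the activator genes CAT8, SIP4 and ADR1) had 62 tested sites in 6 genes; in IP 9 were lower, 18 were higher and 35 did not pass. REG1, which encodes the regulatory subunit that directs the phosphatase Glc7 against Snf1, fell by 0.749 at +3019, with 0.106 and 0.0836 in WT IP and 0.841 and 0.847 in KO IP. SNF1 fell by 0.374 at +1265, and that call ended without any 1 of the 4 IP libraries or either KO input (limma's adjusted p = 0.0427, range 0.00566 to 0.170). SIP4 rose by 0.650 at +986, where WT IP had 0.794 and 0.904 and KO IP, with a wide spread, 0.370 and 0.0268. SIP4 +1529 rose by 0.424, with 0.683 and 0.672 in WT IP and 0.0984 and 0.409 in KO IP. The rise at +1529 was 0.269 without KO IP replicate 1, and its call ended without WT IP replicate 1 (0.0712) or replicate 2 (0.0684) and with only the 4 IP libraries (0.0704; limma's adjusted p from 0.0019 to 0.0712). The GID ubiquitin ligase, which degrades gluconeogenic enzymes once glucose returns, had 44 tested sites in 8 genes, of which 7 fell, 11 rose and 26 did not pass. FYV10 fell by 0.608 at +799 and RMD5 by 0.464 at +811, while GID7 rose by 0.465 at +1729 and UBC8 by 0.385 at +301. Both WT IP values at GID7 +1729 were the highest of their library, so the WT IP spread there is not known. Partner enzymes and transporters had 184 tested sites in 14 of 15 genes, of which 36 fell, 49 rose and 99 did not pass. JEN1, the lactate carrier gene, fell by 0.780 at +232 and MDH3, the peroxisomal malate dehydrogenase gene, fell by 0.774 at +656. In ACO1, the aconitase gene, +1592 rose by 0.564, and in ICL2, a methylisocitrate lyase gene, +226 rose by 0.524. WT IP replicate 2 at ACO1 +1592 and KO IP replicate 1 at FYV10 +799 and JEN1 +232 also stood at the highest value of their library. The shares called lower in IP were 14.5%, 15.9% and 19.6% for the lists in this order, with a background of 17.0%, and the shares called higher were 29.0%, 25.0% and 26.6%, with a background of 24.3%. Median changes in IP were 0.0072, -0.0150 and 0.0147, against 0.0089 over all tested sites.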

How the data were processed

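The authors deposited 1 table of normalized cleavage efficiencies, a fraction per ACA site and library. The name of the table calls them normalized; the formula, the minimum depth and the build are not given in the sources used here. Per the submitters' processing notes, the tools included STAR 2.5.3a and bedtools 2.26.0, whose roles are not stated. The table held 77601 lines in 6104 gene models. For the 1241 positions on more than 1 line, the line of the 10 genes, then the line with most values, then the first was kept. All 10 loci were matched by locus tag to gene symbols of RefSeq (assembly R64). For sites with values in all 8 libraries, limma 3.58.1 (R 4.3.3) modelled the fraction with 1 mean per group, 4 residual degrees of freedom and a moderated variance (prior SD 0.0376 on 1.72 degrees of freedom), and p-values were adjusted by Benjamini and Hochberg over all sites of a contrast. The fit was tested on simulated data. Missing values were not imputed. Errors are standard errors of that fit, which gives all groups 1 variance per site. The text names, per gene, up to 2 lower and 2 higher sites in IP and 1 of each in input that passed with groups apart, the largest interaction and KO pulldown difference, and the last listed site. Other sites named were chosen after their values were seen. The genes and lists were chosen with earlier results of these data known. Alternatives were a logit scale (offset 0.01), sites in at least 6 of 8 libraries, only the 4 libraries of a contrast, their own complete sites fitted alone, quantile normalization, no site at 0.99 or above, a robust and trended prior, the replicate number as a block, and each library left out. For the lists and for further called values, these were added after the values were seen.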

Additional observations from a re-analysis of the deposited data

Results flagged for a closer look

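The gap between WT and KO differed between IP and input, by limma's interaction term, at 14 sites. The interaction was negative, so that WT lay lower against KO in IP than in input, at ACH1 +154 (-0.530), ACH1 +1274 (-0.387), ACH1 +1475 (-0.324), ICL1 +1049 (-0.356), MLS1 +1682 (-0.401), MAE1 +2006 (-0.739), PCK1 +371 (-0.416) and PCK1 +966 (-0.659). It was positive at ACH1 +1214 (0.263), CIT2 +427 (0.255), CIT2 +1352 (0.258), MLS1 +229 (0.262), MLS1 +1836 (0.309) and MDH2 +875 (0.263). None of the 14 passed without KO input replicate 1 or without KO input replicate 2, and most calls over all tested sites were lost then too.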

How the results depend on the processing

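Of 56 called values of single sites, 42 kept their direction and their call under every alternative run, as did 29 of the 33 in IP, and none of the 56 changed direction. Across 876 alternative values of these results, 64 lost the call and 812 kept it. The 56 were mostly named for the largest changes of their gene, so their share does not stand for all called values. None of the 14 interaction calls held under every alternative. Among called values outside the 56, CIT2 +427 in input also lost its call under some alternatives. So did MLS1 +1753 in KO and MDH2 +1506 in WT, both for IP against input. With only the 4 libraries of the contrast, and likewise with their own complete sites fitted alone, the IP count dropped from 62 to 40 and its higher calls from 39 to 24; the WT count of IP against input was 22 and 20, and on the logit scale 21, against 38. The KO count of 2 became 5 on the logit scale, 1 with sites in at least 6 of 8 libraries, 0 in both fits of 4 libraries, 7 without sites at 0.99 or above, 1 with the robust and trended prior and 0 with the replicate number as a block. The interaction count of 14 became 3 on the logit scale, 8 with the robust and trended prior and 9 with the block. Over all tested sites the interaction gave 749 lower and 597 higher calls, and 171 and 89, 587 and 359, and 482 and 272 in these fits. There IP against input in WT gave 1464 and 2160, then 762 and 948 with only the 4 libraries and 1025 and 1091 on the logit scale. IP against input in KO gave 100 and 188, then 120 and 174 on the logit scale and 0 and 0 with only the 4 libraries. With sites in at least 6 of 8 libraries it gave 68 and 131 of 27873 sites. Without sites at 0.99 or above it gave 122 and 260 of 14380. The robust and trended prior gave 66 and 161, and the replicate block gave 3 and 3. Leaving out 1 library gave 34 to 57 calls in input (15 to 24 lower, 18 to 33 higher), 0 to 0 for IP against input in KO and 0 to 13 for the interaction. The change in IP at FBP1 +1052, which did not pass, ran from -0.1612 to 0.1025 when 1 library was left out. It turned positive without WT IP replicate 2 (0.1025) or KO IP replicate 1 (0.0764). The cause was not tested in these cases, beyond the fewer libraries or sites. The labels do not say that replicate numbers pair the libraries, and deviations of same-numbered libraries correlated at -0.0164 to 0.0786 between groups. With the replicate block, IP gave 24 lower and 35 higher calls and input 22 and 26. Over all 17376 tested sites the block gave 2831 and 4014 in IP and 2574 and 2711 in input. Depth per site is unknown and could not be weighed.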

Other observations

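Of the tested sites of these genes, 6 pairs lay within 7 nt of each other, and neighbours often behaved differently. At ICL1 +451 WT IP had a mean of 0.618 and KO IP 0.915, while at +453 the means were 0.954 and 0.907 and did not pass. At PCK1 +690 the means were 0.321 and 0.583, and at +692 they were 0.933 and 0.949. At MLS1 +1834 WT IP had 0.582 and KO IP 0.529, without passing, where +1836 had 0.785 and 0.254. CIT2 +941 and +945 were both higher in WT IP, by 0.253 and 0.124. How reads were split between adjoining sites was not tested.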
